A study of Mus musculus with 18 samples.

Results

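Transcripts of 10 genes of the NF-kB pathway were followed in the livers of 18 mice: the subunits Nfkb1, Nfkb2, Rela and Relb, the inhibitors Nfkbia and Tnfaip3, the adhesion molecules Icam1 and Vcam1, the survival gene Birc3 and the cytokine Tnf. They were taken by gene name from the 55385 genes of the deposited count and RPKM tables, and 9 of the 10 had enough reads to be tested. Polyadenylated RNA came from 6 Dp16-2xIFNRs, 6 Dp16 and 6 wild-type C57BL/6J livers, with 3 females and 3 males per genotype, aged 17.1 to 18.0 weeks and listed with no treatment. Dp16 mice carry an extra copy of a segment of mouse chromosome 16 and serve as a model of trisomy 21. The labels call the Dp16-2xIFNRs mice normalized in the dosage of their interferon receptors, so these mice differ from Dp16 in the receptor genes and share the rest of the segment with them. None of the 10 genes lies on chromosome 16: in GENCODE M21 (GRCm38) Nfkb1 and Vcam1 are on chromosome 3, Relb on 7, Icam1 and Birc3 on 9, Tnfaip3 on 10, Nfkbia on 12, Tnf on 17, and Rela and Nfkb2 on 19. The labels do not say whether the mice were littermates, and p-values weigh differences against the spread between these animals, treated as independent.

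NF-kB is a family of transcription factors that work as dimers. In resting cells most dimers are held in the cytoplasm by IkB proteins. Signals from tumour necrosis factor, interleukin 1 or bacterial products activate the IkB kinase, IkB is destroyed, and the dimer enters the nucleus. There it turns on genes of inflammation, cell adhesion and survival, together with its own inhibitors, which end the signal. In liver, hepatocytes, Kupffer cells (the resident macrophages), sinusoidal endothelium and stellate cells all use the pathway. In whole-tissue RNA, fewer cells of a type and less RNA per cell cannot be told apart.

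Total counts per library ran from 38236222 to 59923315. Dp16 libraries 4 and 5 lay at the ends of the TMM scaling factors (0.8026 and 1.338), and Dp16 library 5 also had the most genes with a count (21023). Ifnar1, which encodes part of a receptor whose dosage the genotypes are meant to set, had a log2 fold change of 0.05 in Dp16-2xIFNRs against wild-type, 0.58 in Dp16 against wild-type and -0.53 in Dp16-2xIFNRs against Dp16 (unadjusted p = 0.741, 0.000841 and 0.00181). After adjustment over all genes it was not called in any of these comparisons. In Dp16-2xIFNRs against Dp16 the smallest adjusted p of any gene was 0.532 by edgeR. A gene that fails the test here may therefore still differ between the genotypes. The summed level of 7 hepatocyte markers lay between 79300 and 141000 CPM (counts scaled to library total and TMM factor) in every library.

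The promoters of the pathway's feedback genes show the sequence that NF-kB dimers are known to bind. Windows of 300 bases, 1 or more per gene, from 250 before to 50 after the annotated start, were available for 7 of the 10 genes in RefSeq (GRCm38.p6). Both strands were searched for the 10-base kB consensus GGGRNNYYCC, where R is A or G, Y is C or T and N is any base. At least 1 match was found in 3 genes (Nfkbia, Tnfaip3 and Nfkb2) and none in the windows of the other 4 (Rela, Icam1, Birc3 and Tnf). Of all 27025 genes in the table, 9.55% hold a match in at least 1 of their windows. A match is a description of letters, not a measured site, and no binding was measured here. Variants of the consensus and sites outside the windows were not searched, so a gene without a match may still hold a site. The windows printed here, the first listed for each gene, run 5′ to 3′ on the strand of the gene, with matches in capitals; Nfkbia, Tnfaip3 and Nfkb2 are shown because they hold matches next to the start, and Icam1 because its level differed between the sexes.
Nfkbia, chr12:55492598-55492897, minus strand: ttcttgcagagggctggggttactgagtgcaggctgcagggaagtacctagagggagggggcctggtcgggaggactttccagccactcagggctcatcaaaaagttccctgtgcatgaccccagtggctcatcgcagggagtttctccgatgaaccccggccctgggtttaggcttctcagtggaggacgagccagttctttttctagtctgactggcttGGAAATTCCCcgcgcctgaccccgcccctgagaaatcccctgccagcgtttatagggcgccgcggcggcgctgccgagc
Tnfaip3, chr10:19015361-19015660, minus strand: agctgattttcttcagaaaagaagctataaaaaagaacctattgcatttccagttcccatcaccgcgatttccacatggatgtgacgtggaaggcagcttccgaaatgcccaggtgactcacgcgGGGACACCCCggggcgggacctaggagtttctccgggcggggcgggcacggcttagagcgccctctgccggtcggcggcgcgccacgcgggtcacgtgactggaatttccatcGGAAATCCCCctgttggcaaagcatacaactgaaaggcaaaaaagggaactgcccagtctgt
Nfkb2, chr19:46304487-46304786, plus strand: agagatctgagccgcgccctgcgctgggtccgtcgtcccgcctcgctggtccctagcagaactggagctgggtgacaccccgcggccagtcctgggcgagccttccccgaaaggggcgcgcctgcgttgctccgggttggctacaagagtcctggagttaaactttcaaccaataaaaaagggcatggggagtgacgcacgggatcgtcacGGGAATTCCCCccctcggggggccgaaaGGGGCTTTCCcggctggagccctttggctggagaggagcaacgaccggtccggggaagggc
Icam1, chr9:21015690-21015989, plus strand: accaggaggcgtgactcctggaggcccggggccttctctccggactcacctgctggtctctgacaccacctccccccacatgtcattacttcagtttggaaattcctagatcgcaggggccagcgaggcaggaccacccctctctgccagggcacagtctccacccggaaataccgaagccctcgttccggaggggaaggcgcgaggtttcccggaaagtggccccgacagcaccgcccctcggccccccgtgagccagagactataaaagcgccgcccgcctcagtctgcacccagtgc

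In Nfkbia the match reads GGGAATTTCC on the opposite strand and covers positions -29 to -20 from the start, where -1 is the base before it. Tnfaip3 has a match at positions -12 to -3, GGGGATTTCC on the opposite strand, and another at -125 to -116. In Nfkb2 overlapping matches fill positions -39 to -29, the first of them reading GGGAATTCCC on both strands, and another, GGGGCTTTCC, lies at -11 to -2. The capitals in Nfkb2 therefore cover 21 bases in 2 runs, and those in Tnfaip3 20 bases.

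Per length of transcript, the inhibitor Nfkbia and the subunit Rela were the most abundant of the 10 genes, and Tnf was close to absent. Over all 18 livers the mean RPKM (reads that the authors scaled for the length of the gene and the size of the library) was 20.8 ± 5.24 for Nfkbia, which encodes IkB alpha, the inhibitor that traps NF-kB dimers in the cytoplasm. Rela, the subunit with the main transactivating domain, had 14.6 ± 4.89 RPKM (SD, n = 18). Among the 15208 genes tested these levels rank 2171 and 2752. Nfkb1, which encodes the precursor of Rela's usual partner, had 3.58 ± 1.56 RPKM.

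Icam1 and Vcam1, which encode adhesion molecules for leukocytes on endothelium, averaged 3.34 ± 1.04 and 3.33 ± 1.36 RPKM. Birc3, an inhibitor of apoptosis that attaches ubiquitin to signalling proteins, averaged 1.92 ± 0.645 RPKM. The non-canonical subunits were lower still, with 1.43 ± 0.538 RPKM for Nfkb2 and 0.992 ± 0.411 for Relb. Tnfaip3, which encodes the ubiquitin-editing brake A20, had 0.401 ± 0.202 RPKM and ranked 12006. Along this order from Nfkbia to Tnfaip3 each gene overlapped its neighbours over the 18 libraries. The widest step among them was between Rela, at 6.80 RPKM or more, and Nfkb1, at 8.06 RPKM or less. Tnf, with a mean of 0.0313 RPKM and at most 0.136, lay below Tnfaip3, at 0.161 RPKM or more, without overlap.

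**Figure D1:**
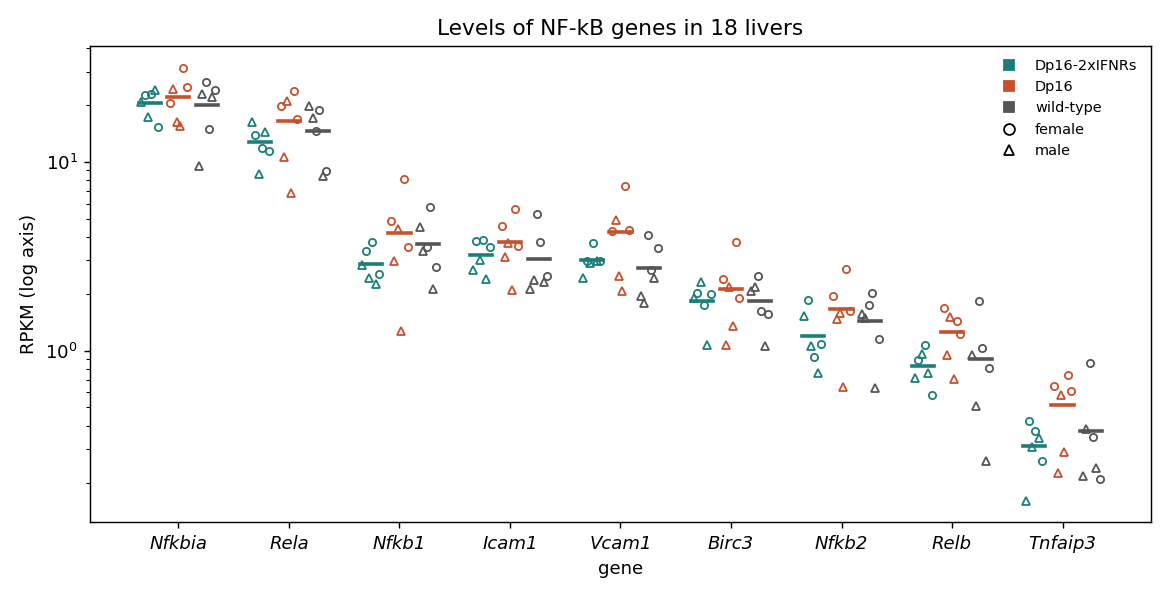
RPKM of the 9 tested genes on a log axis, with 1 point per liver (circles female, triangles male), columns for Dp16-2xIFNRs, Dp16 and wild-type, and bars at group means. The genes span from a mean of 20.8 RPKM for Nfkbia to 0.401 for Tnfaip3, and within each gene the 3 genotypes overlap.

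Tnf, which encodes the cytokine that triggers the canonical pathway, reached 45 reads over all libraries. Its sums were 10 reads in Dp16-2xIFNRs, 18 in Dp16 and 17 in wild-type livers. A read was seen in 1, 3 and 2 of 6 libraries of these genotypes, and 12 of the 18 libraries had 0. A count of 0 allows up to 3 reads, which is between 0.0374 and 0.091 CPM in these libraries (counting error only). The highest library, Dp16-2xIFNRs 5, had 10 reads or 0.249 CPM. The gene was too low to enter the test, so a difference in Tnf between genotypes was not tested.

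No NF-kB gene passed the test in Dp16-2xIFNRs against wild-type, and their log2 fold changes lay on both sides of 0. With the edgeR quasi-likelihood test and Benjamini-Hochberg adjustment over all genes tested, 0 of 9 members were called at an adjusted p under 0.05, where 0.0986% of all genes tested were called. The number of members with an unadjusted p under 0.05 was also 0, beside 8.66% of all genes, and DESeq2 and limma-voom called 0 as well. Of the 9 log2 fold changes 5 were positive, from -0.28 for Nfkb1 to 0.24 for Vcam1, with a median of 0.04 beside -0.02 over all genes tested. Without wild-type library 5 that median was -0.16, and without wild-type library 3 it was 0.175.

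In Dp16 against wild-type, 0 of 9 members were called by edgeR, DESeq2 or limma-voom, with 0.0395% of all genes tested called by edgeR. All 9 fitted log2 fold changes were positive, with a median of 0.12, from 0.04 for Nfkb1 to 0.54 for Vcam1. That median was 0.062 without Dp16 library 5 and 0.234 without Dp16 library 4. In males alone Nfkb1, Rela and Birc3 were negative (-0.15, -0.17 and -0.10), and without Dp16 libraries 4 and 5 Birc3 was -0.02. Over all genes tested 51.4% were positive, and their median was 0.01. The unadjusted p was under 0.05 for 1 member, Vcam1, and for 4.87% of all genes.

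In Dp16-2xIFNRs against Dp16, 0 of 9 members were called, by DESeq2 and limma-voom too, and edgeR called 0% of all genes tested. The log2 fold changes were negative for 8 of 9 members, with a median of -0.27 beside -0.02 over all genes. The median was -0.164 without Dp16-2xIFNRs library 4 and -0.378 without Dp16 library 4. The exception, Nfkbia, was 0.03 in this fit and -0.09 on log2 RPKM, which carries no TMM factor. No member had an unadjusted p under 0.05, where 9.32% of all genes did. These 3 comparisons share libraries in pairs, so the positive values of Dp16 against wild-type and the negative values of Dp16-2xIFNRs against Dp16 rest on the same 6 Dp16 livers.

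**Figure D2:**
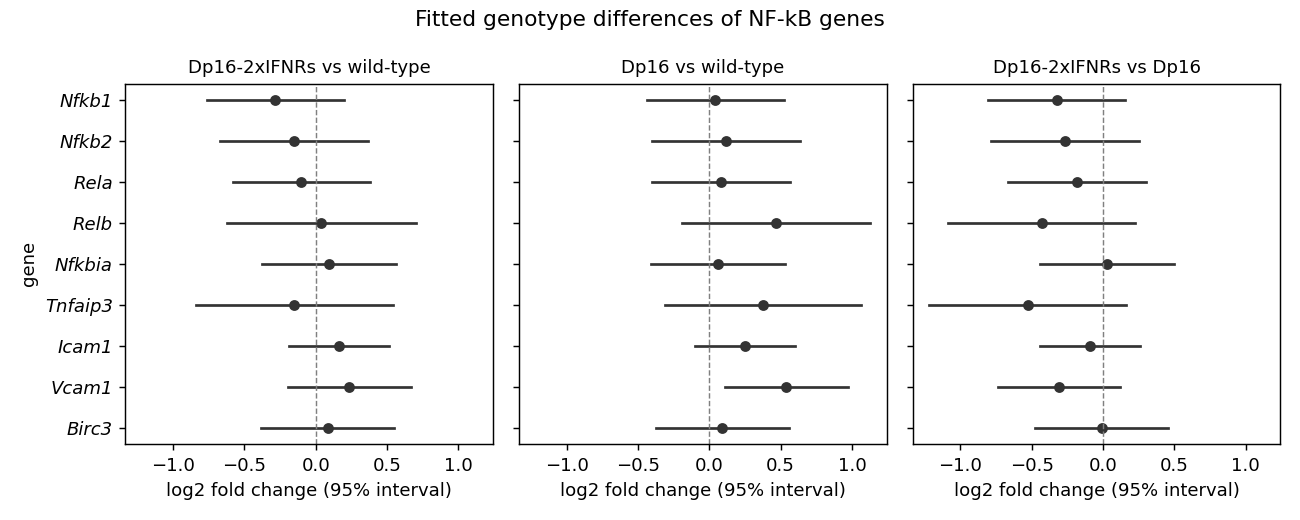
Fitted log2 fold changes (points) with 95% intervals (lines) of the 9 tested genes in the 3 genotype comparisons. The interval of Vcam1 in Dp16 against wild-type, 0.11 to 0.97, is the one that leaves out 0; its adjusted p was 0.811.

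The sample descriptions hold a number that the labels do not explain. Of these numbers 5 are held by more than 1 library, 11 libraries in all, each time by livers of the same sex and of different genotypes. Values within shared numbers were compared after the data were seen and are a description with no test. Tnfaip3 had 0.766, 1.72 and 1.23 CPM in Dp16-2xIFNRs livers 1, 4 and 6, against 2.53, 2.69 and 2.65 CPM in Dp16 livers 3, 1 and 6 of the same numbers. Relb had 1.65, 2.34 and 1.33 CPM in these Dp16-2xIFNRs livers, against 3.17, 3.36 and 2.56 CPM in the Dp16 livers. Tnfaip3, Relb, Nfkb1 and Rela lay below Dp16 in all 3 pairs and 0 members lay above it in all 3, where 22.6% of all genes tested lay below and 22.1% above in all 3. In the 3 pairs of Dp16-2xIFNRs with wild-type livers, 0 members lay below in all 3 and Nfkb2 lay above in all 3, beside 17% and 14.3% of all genes.

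Fits that take up this number were also added after the data were seen, and they called 0 of 9 members in each genotype comparison. With the number as a random block (limma-voom, consensus correlation 0.407) Tnfaip3 had a log2 fold change of -0.78 in Dp16-2xIFNRs against Dp16, with an unadjusted p of 0.0236 and an adjusted p of 0.276. With the number as a fixed term (edgeR, 4 residual degrees of freedom) it was -1.19, with an unadjusted p of 0.015 and an adjusted p of 0.17. Nfkbia was -0.019 and -0.068 in this comparison, and all 9 values were negative in each of these fits. The shares of all genes that were negative or had an unadjusted p under 0.05 were not taken for these fits. In the edgeR fit without the number, 48.1% of all genes were positive in this comparison and 9.32% had an unadjusted p under 0.05. Counts of all genes called with the number are given in the last section.

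Among the subunits, the canonical pair had the smallest fitted differences between Dp16 and wild-type. Nfkb1 had 10.3, 11.5 and 15.3 CPM (lowest, median and highest library) in Dp16-2xIFNRs, 6.49, 15.6 and 24.9 in Dp16, and 9.41, 13.8 and 21.5 in wild-type livers. All 6 Dp16-2xIFNRs livers lay below the Dp16 mean of 15.6 CPM, but inside the Dp16 range, which ran from library 4 at the bottom to library 5 at the top. The log2 fold changes of Nfkb1 were -0.28 (SE 0.23) in Dp16-2xIFNRs against wild-type, 0.04 in Dp16 against wild-type and -0.32 in Dp16-2xIFNRs against Dp16, with adjusted p of 0.715, 0.999 and 0.615 by the edgeR test.

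Rela ran from 24.6 over 35.6 to 45.8 CPM in Dp16-2xIFNRs, from 23 over 45.8 to 53.9 in Dp16 and from 24.7 over 41.7 to 51.9 in wild-type livers. The ranges nearly coincided. The 95% interval of its fold was 0.668 to 1.30 in Dp16-2xIFNRs against wild-type and 0.758 to 1.48 in Dp16 against wild-type.

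Nfkb2, which encodes the precursor of the non-canonical subunit, had 3.56, 4.72 and 8.14 CPM in Dp16-2xIFNRs, 3.37, 6.46 and 8.59 in Dp16 and 2.9, 6.24 and 7.64 in wild-type livers. Its partner Relb had 1.33, 1.96 and 2.34 CPM in Dp16-2xIFNRs, 1.94, 2.46 and 3.36 in Dp16, and 0.62, 2 and 3.93 in wild-type livers. All 6 Dp16-2xIFNRs livers lay below the Dp16 mean of 2.60 CPM of Relb, and the wild-type livers spread more widely than either. The fold of Relb was 0.743 in Dp16-2xIFNRs against Dp16 (95% interval 0.471 to 1.17, adjusted p = 0.622 by edgeR) and 1.38 in Dp16 against wild-type (0.877 to 2.19, adjusted p = 0.999 by edgeR).

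The inhibitors differed from each other in how evenly they were expressed. Nfkbia had 24.7, 34.8 and 42.3 CPM in Dp16-2xIFNRs, 24.2, 33.7 and 39.9 in Dp16, and 14.4, 36.1 and 41.3 in wild-type livers, and its 3 log2 fold changes lay between 0.03 and 0.09. Tnfaip3 had 0.766, 1.60 and 2.03 CPM in Dp16-2xIFNRs, 1.07, 2.54 and 2.69 in Dp16, and 0.966, 1.32 and 3.83 in wild-type livers. All 6 Dp16-2xIFNRs livers lay below the Dp16 mean of 2.19 CPM, while 2 of the Dp16 livers were as low as the Dp16-2xIFNRs ones. Tnfaip3 had the lowest fold of the 9 genes in that comparison, 0.695 (95% interval 0.431 to 1.12, adjusted p = 0.588 by edgeR). Behind these values are 34 to 204 reads of Tnfaip3 per library, against 703 to 2980 of Nfkbia.

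Among the adhesion molecules, Vcam1 had the largest fitted difference between Dp16 and wild-type. It measured 12.5, 15.5 and 18.4 CPM in Dp16-2xIFNRs, 11.8, 19.9 and 27.7 in Dp16 and 8.7, 12.5 and 19.9 in wild-type livers. The 2 highest livers, at 27.7 and 25.4 CPM, were Dp16 libraries 5 and 2, while Dp16 libraries 3 and 4 (11.8 and 12.8 CPM) lay inside the lower part of the wild-type range. The fold was 1.46 in Dp16 against wild-type (95% interval 1.08 to 1.96, log2 0.54, SE 0.205), with an unadjusted p of 0.0162 and an adjusted p of 0.811 by edgeR, and 4 of 6 Dp16 livers lay above the wild-type mean. Without Dp16 library 2 the log2 fold change was 0.37, and without Dp16 libraries 4 and 5 it was 0.53.

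Vcam1 in Dp16-2xIFNRs had a fold of 1.18 against wild-type (95% interval 0.874 to 1.59) and of 0.809 against Dp16 (0.601 to 1.09), with adjusted p of 0.733 and 0.599 by edgeR. The log2 fold change against Dp16 was -0.31, and -0.12 without Dp16 library 2. The Dp16-2xIFNRs livers were the most even, with a coefficient of variation of 12.3%, beside 32.8% in Dp16 and 35.1% in wild-type livers. Summed levels of 8 liver endothelial markers averaged 190 ± 23.1 CPM in Dp16-2xIFNRs, 230 ± 53.2 in Dp16 and 208 ± 35.1 in wild-type livers, and those of 8 stellate cell and fibroblast markers 245 ± 38.4, 266 ± 54.2 and 203 ± 38.1 CPM in the same order (SD, n = 6). The endothelial medians were 184, 215 and 219 CPM in that order, so the wild-type median was not below that of Dp16. Summed Kupffer cell markers averaged 276 ± 29.1, 304 ± 44.4 and 353 ± 106 CPM, highest in wild-type livers. The remaining marker lists also had their highest mean in Dp16-2xIFNRs or wild-type livers. The lists given here were measured in full, with no marker at 0, and their part in the Vcam1 values was not tested.

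Icam1 had 6.72, 8.62 and 10 CPM in Dp16-2xIFNRs, 6.62, 8.81 and 10.6 in Dp16 and 5.22, 6.61 and 13.1 in wild-type livers. Its fold was 1.12 in Dp16-2xIFNRs against wild-type and 1.19 in Dp16 against wild-type, with 95% intervals of 0.877 to 1.43 and 0.933 to 1.52. Birc3 had means of 8.11 ± 1.77, 8.24 ± 2.42 and 7.65 ± 1.96 CPM in Dp16-2xIFNRs, Dp16 and wild-type livers, and its log2 fold change in Dp16-2xIFNRs against Dp16 was -0.01.

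Sex was the factor along which an NF-kB gene passed the test. Icam1 was higher in female than in male livers, and the other 8 tested genes had positive values that did not pass. Icam1 had 6.87, 9.65 and 13.1 CPM (lowest, median and highest) in 9 female livers, against 5.22, 6.72 and 9 CPM in 9 male livers. In Dp16-2xIFNRs and in wild-type the 3 females all lay above the 3 males, with 9.20 to 10.0 CPM in Dp16-2xIFNRs females against 6.72 to 8.04 in males, and 6.87 to 13.1 in wild-type females against 5.22 to 6.35 in males. In Dp16 the females, at 8.63 to 10.6 CPM, overlapped the males, at 6.62 to 9.

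The fold of Icam1 in females against males was 1.39 (95% interval 1.14 to 1.7, log2 0.48, SE 0.137, adjusted p = 0.0405 by the edgeR quasi-likelihood test), and 8 of 9 females lay above the male mean. It was 1 of 9 members called, where 6.56% of all genes tested were called between the sexes and 3.16% were called higher in females. DESeq2 and limma-voom called Icam1 too (adjusted p = 0.0106 and 0.0465), and DESeq2 called 1535 of all genes between the sexes. With the description number as a random block limma-voom did not call it (log2 0.45, adjusted p = 0.133), and livers that share a number are of 1 sex. The call is close to its threshold: in 13 of 18 fits that leave out 1 library the adjusted p lay above 0.05, at up to 0.0759, while the log2 fold change stayed between 0.39 and 0.52. It stayed under 0.05 without Dp16-2xIFNRs library 3, Dp16 library 2, 3 or 6, or wild-type library 6. Without Dp16 libraries 4 and 5 the log2 fold change was 0.46 with an adjusted p of 0.0763.

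Vcam1 had 11.9, 19.1 and 27.7 CPM in female livers, against 8.7, 12.8 and 25.4 in male livers. Its log2 fold change of 0.43 had an adjusted p of 0.152 by edgeR (unadjusted p = 0.0183). Tnfaip3 (0.53), Relb (0.42), Nfkb1 (0.39) and Nfkb2 (0.34) had log2 fold changes of a similar size in females against males, with adjusted p from 0.27 to 0.415 by edgeR, and Rela (0.04) and Nfkbia (0.10) had the smallest. The median over the 9 members was 0.39, with 9 of 9 positive, beside a median of 0.02 and 52.4% positive over all genes tested.

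**Figure D3:**
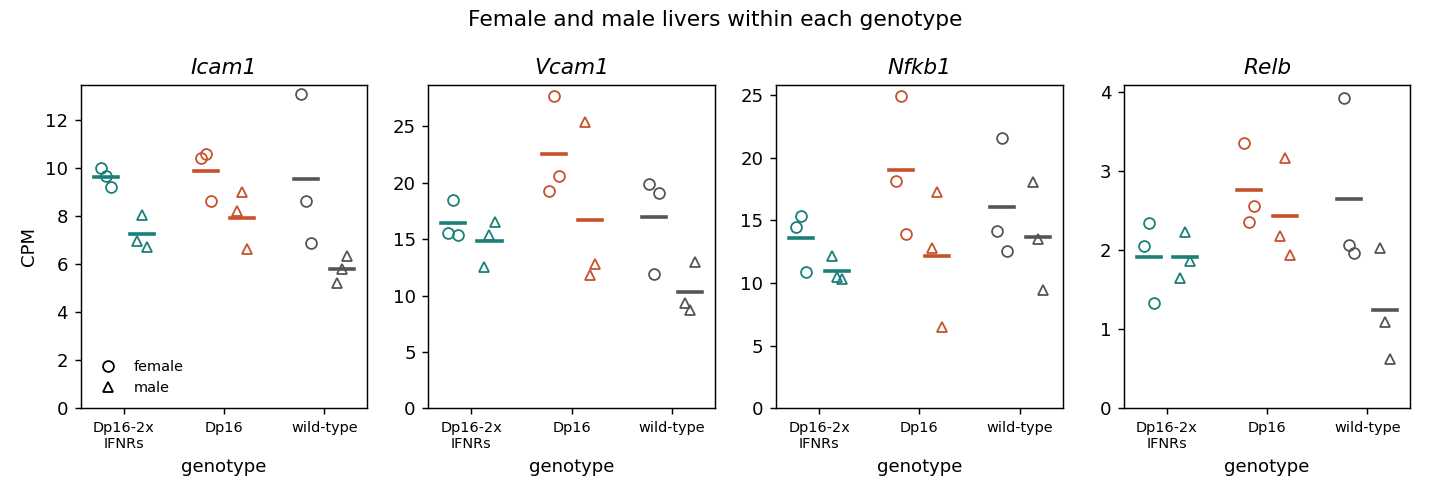
CPM of Icam1, Vcam1, Nfkb1 and Relb in female (circles, left) and male (triangles, right) livers of Dp16-2xIFNRs, Dp16 and wild-type mice, with bars at the means of 3. Icam1 females averaged 9.62, 9.89 and 9.53 CPM in these genotypes, against 7.25, 7.94 and 5.80 CPM in males.

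Summed markers of liver endothelium, Kupffer cells and stellate cells also had higher means in female livers. So did those of hepatocytes (121000 against 105000 CPM in males) and cholangiocytes (59.7 against 47). B and plasma cell markers had a higher mean (57.6 against 51.5) but a lower median (28.8 against 45.1) in females. Markers of neutrophils and monocytes, T and NK cells, erythroid cells, adipocytes and pancreas had lower means. The 8 liver endothelial markers summed to 179 to 305 CPM in female livers (mean 228 ± 41.3), against 142 to 240 CPM in male livers (191 ± 31.7, SD, n = 9 each). The 8 Kupffer cell markers summed to 236 to 527 CPM in females (342 ± 86.9), against 222 to 341 CPM in males (280 ± 37.4). The 8 stellate cell and fibroblast markers summed to 220 to 358 CPM in females (265 ± 41.6), against 148 to 293 CPM in males (212 ± 43.5). The neutrophil and monocyte markers summed to 92.2 ± 26.2 CPM in females against 108 ± 66.1 in males, the T and NK cell markers to 6.64 ± 2.13 against 7.23 ± 3.22, and the erythroid markers to 78.5 ± 47.3 against 244 ± 89.3. The neutrophil and monocyte medians went the other way (102 CPM in females, 84.6 in males), and Dp16 library 4, a male, held 243 CPM. Fitted gene by gene, 5 of 8 markers were higher in females in the neutrophil and monocyte list and 5 of 8 in the T and NK cell list. No marker of the endothelial, Kupffer cell and stellate cell lists was at 0 in all libraries, none of their genes was called between the sexes, and their part in the Icam1 difference was not tested.

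Whether the genotype differences themselves differ between females and males was tested with an interaction term. With edgeR, 0 of 9 members were called in each of the 3 comparisons, where 0% of all genes were called in each, and no member had an unadjusted p under 0.05 (beside 2.24%, 7.88% and 3.33% of all genes in Dp16-2xIFNRs against wild-type, Dp16 against wild-type and Dp16-2xIFNRs against Dp16). DESeq2 called 0 members in each as well, beside 10, 52 and 12 of all genes in the same order, and 1 of the 53 further pathway genes described below in each of the first 2 comparisons. The largest was Relb in Dp16-2xIFNRs against wild-type, at -1.09 on the log2 scale (females less males, SE 0.603, unadjusted p = 0.0896). Behind it are Dp16-2xIFNRs females and males that both averaged 1.91 CPM, while the wild-type females ran from 1.96 to 3.93 CPM and the wild-type males from 0.62 to 2.04 CPM.

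Within groups, the canonical subunits varied together from liver to liver. After the group and sex means were removed from log2 CPM, Nfkb1 and Rela had a Pearson r of 0.782 and a Spearman rho of 0.75 over 18 livers (permutation p = 8e-05 and 0.00047, two-sided, 100000 permutations; adjusted over 36 pairs 0.00288 and 0.0169). Without Dp16 libraries 4 and 5, the farthest from the median of Nfkb1, r was 0.729. Nfkb1 with Nfkb2 had r = 0.70 (rho 0.674, permutation p 0.00106 and 0.00292, adjusted 0.0191 and 0.035), and 0.608 without the same libraries. Nfkb2 with Rela had r = 0.674 (rho 0.618, permutation p 0.00252 and 0.00742, adjusted 0.0302 and 0.0668), and 0.478 without wild-type library 5 and Dp16 library 4.

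Outside the subunits, Nfkbia and Vcam1 varied together, with r = 0.641 and rho 0.688 (permutation p 0.004 and 0.00225, adjusted 0.036 and 0.035), and r = 0.644 without wild-type libraries 1 and 4. For r, 4 of the 36 pairs had an adjusted p under 0.05, and 26 had a positive r. Of all pairs of genes tested 50.2% had a positive r, and an r at least as high as those of these 4 pairs was found in 2.62% (Nfkb1 with Rela), 4.87%, 5.7% and 6.85% of them (Nfkbia with Vcam1). Nfkb1 and Nfkbia had r = -0.394 and rho -0.482 (adjusted permutation p of r 0.383), with r = -0.614 without Dp16 libraries 4 and 5. The permutations treat the 18 livers as independent, though 11 of them share a description number.

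The description numbers have 1 of 2 beginnings, shared by 11 libraries and by 7 libraries. Within the 11 and the 7 the r of Nfkb1 with Rela was 0.598 and 0.747, that of Nfkb1 with Nfkb2 0.252 and 0.861, that of Nfkb2 with Rela 0.352 and 0.717, and that of Nfkbia with Vcam1 0.636 and 0.633. That of Nfkb1 with Nfkbia was -0.888 in the 11 and 0.0371 in the 7. In the 7 libraries against the 11, Rela had a log2 difference of -0.52, Nfkb2 of -0.43 and Nfkb1 of -0.40, with unadjusted p of 0.00601, 0.044 and 0.0412 and adjusted p of 0.231, 0.26 and 0.256 by edgeR. Between these sets 18.5% of all genes had an unadjusted p under 0.05, and edgeR called 0% after adjustment.

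Nfkb1, Rela and Nfkb2 also varied with the scaling factor of the library. The r of log2 CPM with the log2 TMM factor, both with group and sex means removed, was 0.89 for Nfkb1 (rho 0.872, permutation p = 1e-05 for each, the smallest that 100000 permutations can give, adjusted over 9 genes 9e-05). It was 0.689 for Rela (rho 0.734, permutation p 0.00085 and 0.00095, adjusted 0.00382 and 0.00427) and 0.594 for Nfkb2 (rho 0.552, permutation p 0.00789 and 0.0191, adjusted 0.0237 and 0.0524). Without Dp16 libraries 4 and 5 these were 0.807, 0.665 and 0.486. An r as high as that of Nfkb1 was found in 1.22% of all genes tested, as high as that of Rela in 16.1%, and as high as that of Nfkb2 in 21.8%. Icam1 (0.238), Nfkbia (-0.276) and Vcam1 (-0.04) did not pass the permutation test. Without Dp16 libraries 4 and 5 their r was 0.172, -0.565 and -0.568. The part of the scaling factor in the pairs above was not tested.

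**Figure D4:**
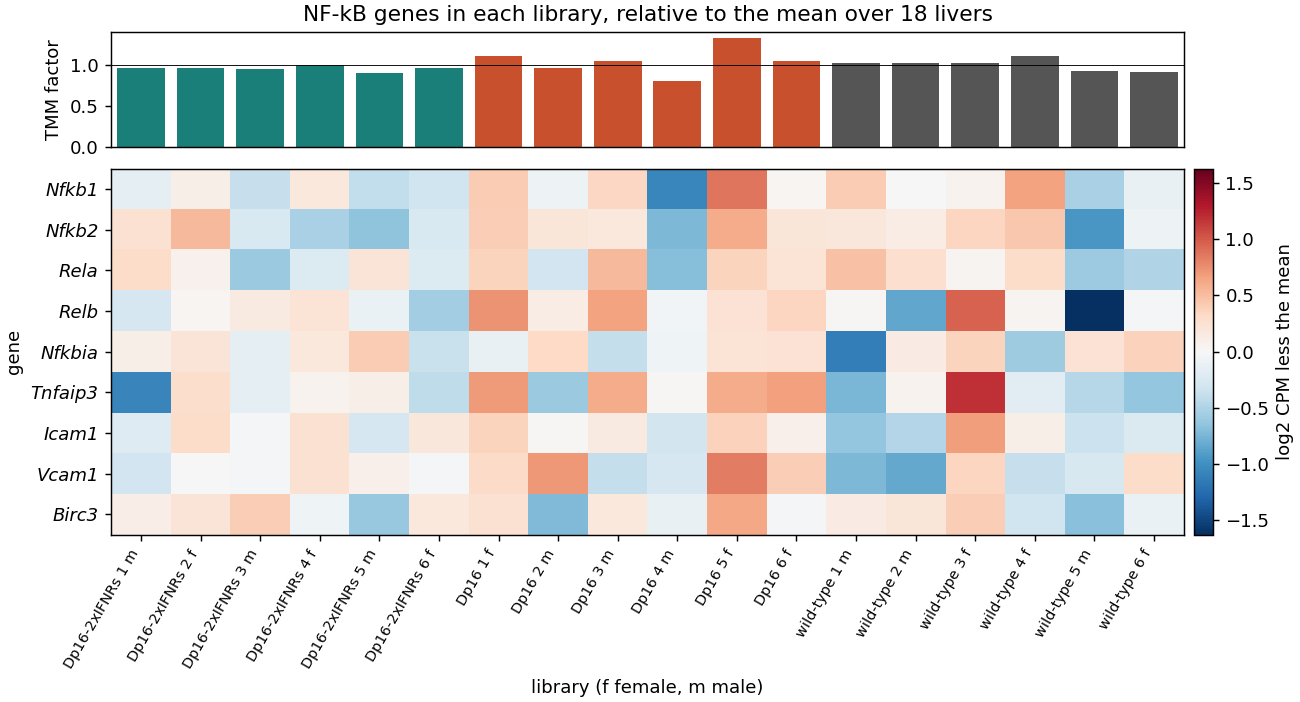
Upper bars give the TMM factor of each library, coloured by genotype; the map gives log2 CPM of the 9 tested genes less the gene's mean over 18 livers (red higher, blue lower). Nfkb1, Nfkb2 and Rela are low together in Dp16 library 4 (-1.06, -0.73 and -0.70) and high together in Dp16 library 5 (0.87, 0.61 and 0.36).

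**Figure D5:**
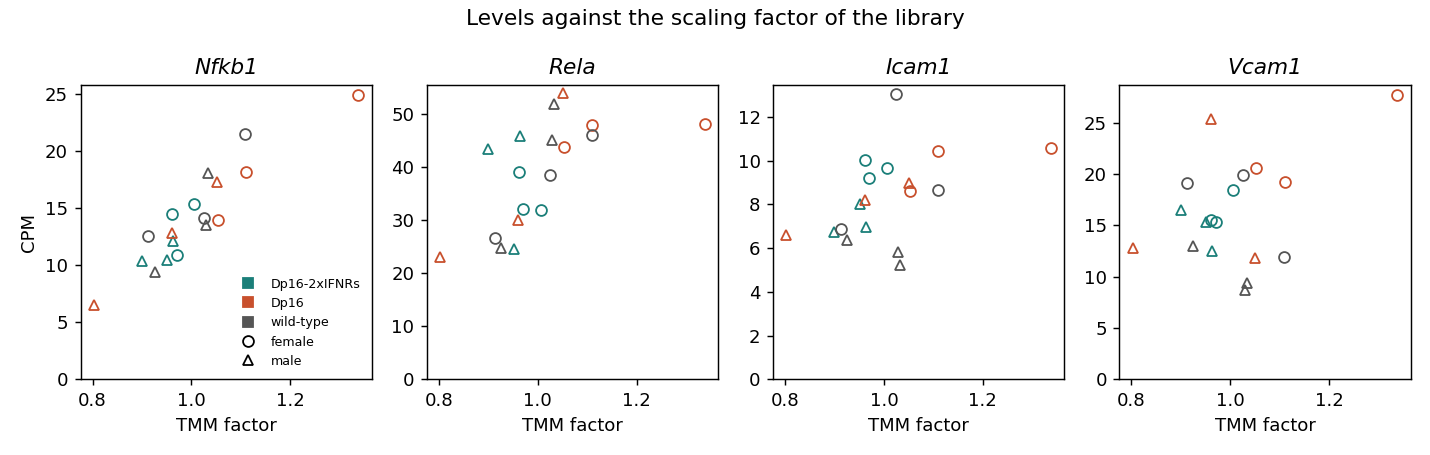
CPM of Nfkb1, Rela, Icam1 and Vcam1 in each liver against the TMM factor of its library, coloured by genotype, with circles for females and triangles for males. Nfkb1 runs from 6.49 CPM at a factor of 0.8026 to 24.9 CPM at 1.338, and Vcam1 is highest at the same factor of 1.338 (27.7 CPM), while over the other livers without Dp16 library 4 its r with the factor was -0.568 after group and sex means were removed.

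The genes whose pattern was most like that of a member, among 10029 other genes (10030 for Tnfaip3) above a mean log2 CPM of 1, differed from member to member. They are given as a description, with the Pearson r over 18 livers and no test. Nfkb1 went with Abcb11 and Phf3 (r = 0.969 each) and Ptprf (0.964). Rela went with Wbp11 (0.971), Rnf31 (0.963) and Plxnd1 (0.948), where Rnf31 encodes a ubiquitin ligase of the linear chain complex that feeds the IkB kinase. Nfkb2 went with Msh3 (0.909), Cul5 (0.881) and Sntb2 (0.877). Relb went with Mpeg1 (0.807), a macrophage gene, Actg1 (0.791) and Tmem106a (0.788).

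Nfkbia went with the glucocorticoid-induced gene Tsc22d3 (0.894), Ppp1r3g (0.866) and Akip1 (0.852). Tnfaip3 went with Fbxl14 (0.717), Kdf1 (0.715) and Sox4 (0.714). Icam1 went with Spi1 (0.815), which encodes a transcription factor of myeloid cells, Lix1l (0.785) and Itgb7 (0.777). Vcam1 went with BC023105 (0.796), Nop58 (0.791) and Serpina3f (0.761), and Birc3 with Creb3l1 (0.823), Cdc23 (0.81) and Tcp11l2 (0.793). The 18 points share their libraries, so scaling enters every one of these values.

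The rest of the pathway was read from 4 further lists with 59 genes, of which 53 were tested. By edgeR, 0 of the 53 were called in each of the 3 genotype comparisons, and 4, 1 and 5 had an unadjusted p under 0.05 in Dp16-2xIFNRs against wild-type, Dp16 against wild-type and Dp16-2xIFNRs against Dp16. These are 7.55%, 1.89% and 9.43% of the 53, beside 8.66%, 4.87% and 9.32% of all genes. DESeq2 called 1, 0 and 0 of them, beside 127, 72 and 7 of all genes, and limma-voom 0 in each. Their median log2 fold changes were 0.01, 0.10 and -0.02. The genes named next have the smallest p of their list and did not pass the test.

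Among the other subunits and IkB proteins, Nfkbiz, an atypical nuclear IkB protein, had 0.415, 0.685 and 1.03 CPM in Dp16-2xIFNRs, 0.607, 1.24 and 3.53 in Dp16 and 0.596, 1.71 and 1.83 in wild-type livers. Its log2 fold change was -1.09 in Dp16-2xIFNRs against wild-type and -1.44 against Dp16, with adjusted p of 0.498 and 0.532 by edgeR. Bcl3, a nuclear coactivator of the family, had -0.33 in Dp16-2xIFNRs and -0.40 in Dp16, both against wild-type, and Nfkbie, another cytoplasmic inhibitor, 0.21 in Dp16-2xIFNRs against wild-type and 0.36 against Dp16. The subunit Rel had 0.33 in Dp16 against wild-type and -0.53 in Dp16-2xIFNRs against Dp16, and the inhibitor Nfkbib -0.13 in Dp16 against wild-type.

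Of the kinase, its adaptors and its brakes, Rnf31 had a log2 fold change of -0.57, the death domain kinase Ripk1 -0.40 and the IkB kinase subunit Chuk -0.24 in Dp16-2xIFNRs against wild-type. In Dp16-2xIFNRs against Dp16, the adaptor Traf3 had -0.79, the deubiquitinase Cyld -0.45 and Chuk -0.32, each with an adjusted p of 0.532 by edgeR. In Dp16 against wild-type, the adaptor Tab2 had 0.42, the receptor-associated kinase Irak1 0.25 and the kinase Map3k7 0.20.

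Of the receptors and ligands, Il1r1 had a log2 fold change of -0.44 in Dp16-2xIFNRs against wild-type and -0.54 against Dp16, and its ligand Il1b 0.68 and 0.71. The receptor Tnfrsf1a had -0.22 in Dp16-2xIFNRs against wild-type, and Tnfrsf1b -0.32 in Dp16-2xIFNRs against Dp16 and 0.23 in Dp16 against wild-type. Il1a had -0.89 and Tnfsf13b 1.41 in Dp16 against wild-type. Adjusted p-values of these genes by edgeR were 0.542 or more.

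Of the other targets, the monocyte chemokine Ccl2 had 0.676, 1.4 and 4.18 CPM in Dp16-2xIFNRs, 0.733, 1.03 and 1.55 in Dp16 and 0.123, 0.593 and 0.944 in wild-type livers. Its log2 fold change was 1.82 in Dp16-2xIFNRs against wild-type (adjusted p = 0.239 by edgeR), 1.00 in Dp16 against wild-type (0.999) and 0.82 in Dp16-2xIFNRs against Dp16 (0.576). The chemokine Ccl5 had 1.16 in Dp16-2xIFNRs and 0.82 in Dp16, both against wild-type. Plau had 0.53 in Dp16-2xIFNRs against wild-type, Relt 1.95 in Dp16 against wild-type, and Cflar -0.39 and Ier3 -0.82 in Dp16-2xIFNRs against Dp16. Summed neutrophil and monocyte markers (8 of 8 detected) ran from 81.1 to 162 CPM in Dp16-2xIFNRs, from 54.6 to 243 in Dp16 and from 39.6 to 108 in wild-type livers, and their part in the chemokine values was not tested.

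Between the sexes, 2 of the 53 further genes were called by edgeR, 1 in each direction, where 6.56% of all genes tested were called. DESeq2 called 5 of the 53, beside 1535 of all genes. EdgeR without the low count filter called 1 of the 53, and limma-voom with the description number as a random block 0. Map3k7, the kinase that activates the IkB kinase, was lower in females, with 16.2, 22.1 and 26.5 CPM in female livers, against 24.4, 28.5 and 31.5 CPM in male livers (log2 -0.40, SE 0.108, adjusted p = 0.0296). Gadd45b, a stress-induced target, was higher in females, with 0.683, 1.4 and 2.64 CPM, against 0, 0.372 and 0.88 CPM in males (log2 1.91, SE 0.523, adjusted p = 0.0321). Leaving out 1 library at a time, the count ran from 0 to 3. The receptor Tnfrsf1a, with 77.4 to 126 CPM in females, against 63.5 to 85.3 CPM in males, had a log2 fold change of 0.33 and an adjusted p of 0.052. Tnfrsf1b had 0.38, Ltbr -0.26, Nfkbib -0.17, Rel 0.30 and Nfkbie 0.18, with adjusted p from 0.197 to 0.669 by edgeR.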

How the data were processed

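Liver RNA was sequenced from polyadenylated, strand-specific, paired-end libraries, per the labels' protocols. Per the submitters' processing notes, the tools were HISAT2 2.1.0, HTSeq 0.6.1, SAMtools 1.5, FastQC 0.11.5 and bcl2fastq and the build GRCm38 (roles and order not stated); how strand and shared reads were handled is also not stated. The authors deposited whole-number counts for 55385 genes, and RPKM. In genes with a count in every library, RPKM kept the same ratio to the count over the column total across libraries (largest relative difference 3.6e-15). The gene lengths behind the RPKM were not checked.

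All 18 libraries (38236222 to 59923315 counts) entered 1 fit with group and sex as terms: filterByExpr by group (15208 genes), TMM factors, edgeR 4.0.16 quasi-likelihood test with robust estimation (R 4.3.3), Benjamini-Hochberg over all genes tested, threshold 0.05. CPM are counts scaled by total and TMM factor, and log2 CPM used a prior count of 2. The fit was run on simulated data with planted changes as a check, and no detection rate is reported from it here. No replicate pair agreed within sampling noise (lowest chi-square per gene 67.1). Intervals are 95% confidence intervals of the fitted difference, based on the spread between libraries. The fit treats the libraries as independent, though 11 of them share a description number.

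The members and lists were chosen with earlier results of these data known. Named outside the members are, from each further list and each genotype or sex comparison, the genes called or else the 3 with the smallest p, and for likeness the 3 genes with the highest r, without names of the Gm and Rik kind (BC023105, another clone name, was not covered). Correlations used 100000 permutations of values with group and sex means removed, which leave 14 degrees of freedom. Alternatives were DESeq2 1.42.0, limma-voom and limma 3.58.1 on log2 RPKM plus 0.1 or 1, other size factors, filters and covariates, each sex alone, and each library left out. The fit without Dp16 libraries 4 and 5, and those with the full description number as a random block or a fixed term, were added after the data were seen.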

Additional observations from a re-analysis of the deposited data

Results flagged for a closer look

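Of 27 sets of 6 libraries (9 genes in 3 genotypes), 1 held a library whose distance from its nearest neighbour took up an unusually large share of the group's range; chance gives about 1 in 20 such sets. Tnfaip3 measured 3.83 CPM in wild-type library 3, a female, beside 0.966 to 1.72 CPM in the other wild-type livers. That gap is 0.738 of the range, above Dixon's critical share for 6 samples. Without this library the log2 fold change of Tnfaip3 was 0.19 in Dp16-2xIFNRs against wild-type and 0.73 in Dp16 against wild-type, beside -0.15 and 0.38 with it, and neither was called in any alternative. The same library also held the highest wild-type values of Icam1 (13.1 CPM), Relb (3.93 CPM) and Vcam1 (19.9 CPM), and 11 of the 17 wild-type reads of Tnf. It had the highest summed Kupffer cell (527 CPM) and cholangiocyte markers (105 CPM) of all 18 livers, the next being 397 and 79.8 CPM, and 10.2 CPM of T and NK cell markers, beside up to 6.11 CPM in the other wild-type livers. The part of these markers was not tested.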

How the results depend on the processing

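No member was called between genotypes in any of the alternatives run, with adjusted p of at least 0.123 for single members. The count of all genes called moved more. In Dp16-2xIFNRs against wild-type it was 15, and 127 with DESeq2, 38 and 27 with limma on log2 RPKM plus 0.1 and 1, 7 without the sex term, 23 with the first digits of the description number as a term, 43 with only the groups compared, 0 in males alone, 0 in females alone, 64 without Dp16 libraries 4 and 5, and 68 and 0 with the full description number as a random block and as a fixed term; leaving out 1 library gave 4 to 48. In Dp16 against wild-type it was 6, and 72 with DESeq2, 10 with limma-voom, 11 with either RPKM fit, 3 without the sex term, 1 with only the groups compared, 0 in either sex alone, 1 without Dp16 libraries 4 and 5, and 16 and 0 with the number as a random block and as a fixed term; leaving out 1 library gave 1 to 9. In Dp16-2xIFNRs against Dp16 it was 0, and 7 with DESeq2 and 3 with the number as a fixed term. The members called between the sexes, 1 (Icam1), became 0 without the low count filter (log2 fold change 0.50, adjusted p 0.111), 0 without Dp16 libraries 4 and 5 and 0 with the number as a random block (the fixed term leaves no contrast of the sexes), and 0 to 2 with 1 library left out, the second being Vcam1 without Dp16 library 2 (adjusted p 0.0402). Without the filter more genes were tested; the cause of the other changes was not tested.

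Replicate numbers were not treated as pairs. With group means but not sex removed, same-numbered libraries correlated at -0.449 to 0.342. In Dp16-2xIFNRs against wild-type, Dp16 against wild-type and Dp16-2xIFNRs against Dp16, 3, 0 and 1 of 6 libraries correlated best with their own number. In the same order 4, 2 and 2 of 6 same-numbered pairs were of the same sex. With the replicate number as a replicate block, 21, 5 and 0 genes were called in Dp16-2xIFNRs against wild-type, Dp16 against wild-type and Dp16-2xIFNRs against Dp16, and 0 members in each.

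Some log2 fold changes changed sign between fits, and not all of these were near 0. That of Vcam1 in Dp16-2xIFNRs against wild-type was 0.24 in the fit of all 18 libraries. In Dp16-2xIFNRs against wild-type these were Relb (-0.012 with RPKM plus 1, -0.032 without the sex term, -0.48 in females), Nfkbia (-0.095 in females), Vcam1 (-0.052 in females), Tnfaip3 (0.056 in males) and Nfkb2 (0.20 with the number as a fixed term), and with 1 library left out Birc3 (-0.036 to 0.18), Nfkbia (-0.063 to 0.18), Rela (-0.21 to 0.015), Relb (-0.16 to 0.30) and Tnfaip3 (-0.28 to 0.19). In Dp16 against wild-type they were Nfkb1 (-0.15), Rela (-0.17) and Birc3 (-0.10) in males, Nfkbia in females (-0.00013) and Birc3 without Dp16 libraries 4 and 5 (-0.020), and with 1 library left out Birc3 (-0.016 to 0.21), Nfkb1 (-0.083 to 0.19), Nfkb2 (-0.0066 to 0.23), Nfkbia (-0.088 to 0.15) and Rela (-0.038 to 0.21). In Dp16-2xIFNRs against Dp16 they were Birc3 (9.9e-05 with DESeq2, 0.00051 with its size factors, 0.016 with age, 0.19 in males, 0.10 without Dp16 libraries 4 and 5), Nfkbia (-0.091 with RPKM plus 0.1, -0.088 with RPKM plus 1, -0.095 in females, -0.019 and -0.068 with the number as a random block and as a fixed term) and Rela (0.078 in males), and with 1 library left out Birc3 (-0.13 to 0.10) and Nfkbia (-0.063 to 0.12). In females against males they were Rela (-0.069 without Dp16 libraries 4 and 5, -0.055 to 0.12 with 1 library left out) and Nfkbia (-0.0063 to 0.16 with 1 library left out). The depth limits Tnf, with 45 reads in all, and the low genes Tnfaip3 and Relb.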
